A study of Tupaia belangeri chinensis with 36 samples.

Results

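The outer and the inner subventricular zone (OSVZ and ISVZ) of the fetal tree shrew cortex were compared at embryonic day 28 (E28), with 2 libraries of each layer, so 4 of the 36 libraries of the series entered the comparison. The libraries were chosen by the layer and age on their labels, and no measured value was used. The animals were fetal Chinese tree shrews (Tupaia belangeri chinensis) with no treatment, transgene or mutation named, and the layers were cut by laser from Nissl-stained frozen sections, so each library is a mixture of all cells in the cut area, and libraries were made from polyadenylated RNA. The labels give a replicate number but do not say whether the replicates came from separate animals. The p-values therefore measure a spread between libraries, which may be partly technical. That spread was estimated jointly over 35 libraries of all layers and ages, and not from the 4 libraries alone. At E28 the ventricular zone (VZ), intermediate zone (IZ), cortical plate (CP) and marginal zone (MZ) were also sampled with 2 libraries each, and at E42 the OSVZ and ISVZ again with 2 libraries each, and these libraries are not part of the E28 contrast between OSVZ and ISVZ.

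In the developing cortex, apical radial glia line the ventricle in the VZ and divide there. Their basal progeny, intermediate progenitors and basal radial glia, gather in the subventricular zone, which in species with an expanded germinal zone is split by a fibre layer into the ISVZ next to the VZ and the OSVZ towards the pia. Newborn neurons cross both layers on their way to the IZ and CP, and interneurons born in the ventral forebrain migrate tangentially through the germinal zones and the MZ.

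The count tables held 76871 annotated features, of which 26858 passed the filter on low counts and were tested. The 15911 tested features with a TSDBGID identifier carry no gene symbol. Gene names therefore came only from 10836 tested long noncoding features, 3922 intergenic ones written LINC-SYMBOL-n and 6914 antisense ones written SYMBOL-AS-n, after a gene near or opposite to them. A value for SOX9-AS-1, for example, is the level of the counts assigned to that feature and is not read as the level of SOX9. The library kit as described does not mark strand, and without strand the reads of a gene and of its antisense partner cannot be told apart. Levels are given as CPM, each feature's share of a library's counts with library sizes scaled by TMM (trimmed mean of M values) and no scaling by length, and log2 fold changes as OSVZ over ISVZ with their standard error (SE). A feature is said to be called where the adjusted p of the edgeR quasi-likelihood test (Benjamini-Hochberg over all 26858 features) was under 0.05.

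The OSVZ libraries held 38457348 and 34955524 counts on features and the ISVZ libraries 30187502 and 33954220, against 17932690 to 102042743 over the series. Noncoding features took 1.55% and 1.79% of the counts in the OSVZ and 2.26% and 1.76% in the ISVZ. Lines that named no gene (reads that were ambiguous, outside features or not uniquely aligned) took 41.7% and 43.5% in the OSVZ but 50.8% in replicate 1 and 42.1% in replicate 2 of the ISVZ, and this difference between the ISVZ replicates was not tested for a part in the results.

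At E28, 2399 of 26858 features (8.93%) differed between the layers, 1015 with the higher level in the OSVZ (3.78% of those tested) and 1384 with the higher level in the ISVZ (5.15%). The median log2 fold change was 1.28 among the former and -1.40 among the latter. The libraries of the 2 layers did not overlap in 1009 of the 1015 and in 1376 of the 1384. Of all tested features, 19.6% (OSVZ higher) and 24.7% (ISVZ higher) did not overlap, so non-overlap is no support beyond the call. Features with a TSDBGID identifier made up 933 of the OSVZ-higher and 1323 of the ISVZ-higher features. Of the noncoding features 142 were called (1.31%), 82 of them OSVZ-higher (0.757%, 32 LINC and 50 antisense) and 60 ISVZ-higher (0.554%, 32 LINC and 28 antisense). With the replicate number as a block, which the libraries of E28 allow, the counts rose to 3819 features (1598 and 2221) and 249 noncoding features (138 and 111), and these held 2386 of the 2399 calls and all 142 noncoding ones. A fit without a library leaves a single library in its layer. A call can be lost there because the test has less to go on, also where the fold change holds. Leaving out single libraries lowered them to 1533 and 64 (ISVZ replicate 1), 1219 and 64 (ISVZ replicate 2), 1544 and 77 (OSVZ replicate 1) and 1102 and 48 (OSVZ replicate 2).

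**Figure D1:**
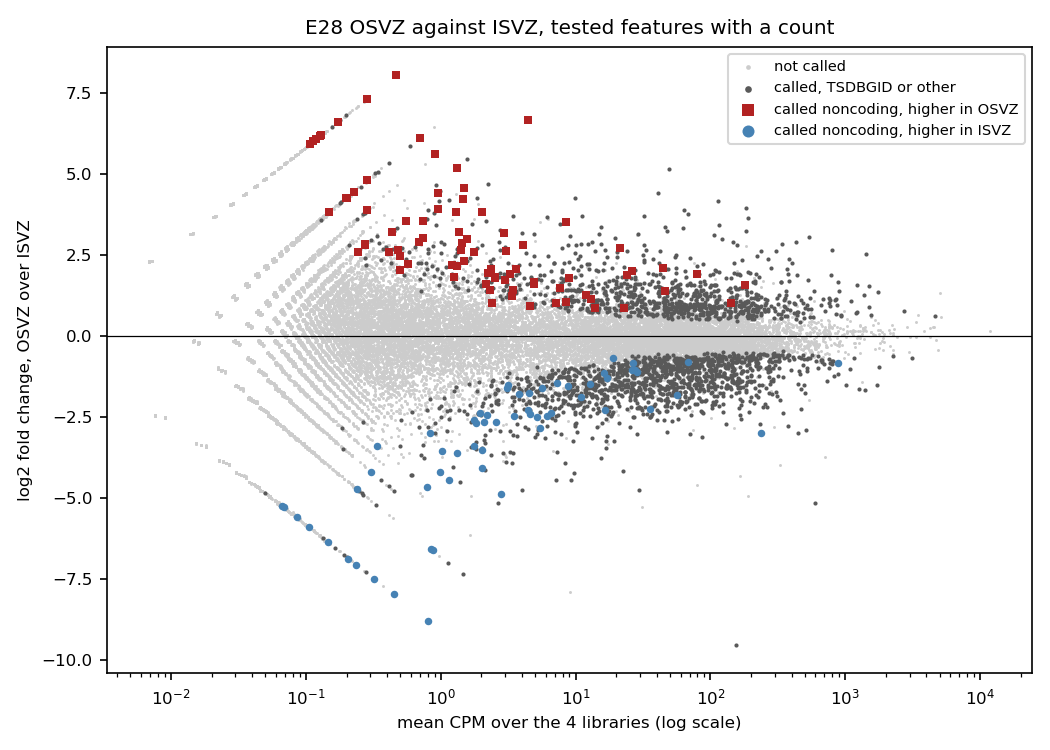
The plot of fold change by level shows the log2 fold change of the OSVZ over the ISVZ at E28 (vertical) against the mean CPM of the 4 libraries (horizontal, log scale) for each tested feature with a count in any of them. Called noncoding features (82 red squares, 60 blue circles) lie mostly at lower levels than the called TSDBGID features (dark grey), and the straight bands at the left are features with a handful of counts.

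The noncoding features were low in level, with a median of 0.101 CPM over the 4 libraries against 10.9 CPM for TSDBGID features. Of all tested noncoding features, 199 reached a mean of 10 CPM over the 4 libraries. The called ones had a median of 2.67 CPM in the OSVZ for those higher there and 4.55 CPM in the ISVZ for those higher there. Their fold changes were accordingly wide, with a median log2 value of 2.64 and -2.62 (2.43 and -2.46 when layers without a count were set to a floor of 3 counts over both libraries). In a bulk cut of a layer, fewer cells of a type and less RNA per cell cannot be told apart.

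Of the 161 annotated features named after genes of radial glia and apical progenitors, 46 were tested and 89 had no count in the 4 libraries. Of the 46, 5 were called, all higher in the ISVZ, where 142 of all 10836 noncoding features (1.31%) were called. The median log2 fold change of the 46 was -1.77 (-1.44 with empty layers at the floor) against 0 over all noncoding features. An unadjusted p under 0.05 was found for 16 of the 46 and for 701 of all 10836 noncoding features. Their summed level was 25.2 and 21.3 CPM in the OSVZ, 89.0 and 75.3 CPM in the ISVZ, 108 to 117 CPM in the VZ and 9.67 to 15.1 CPM in the IZ. The OSVZ libraries thus lay below the ISVZ and VZ and above the IZ.

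The called members stood near SOX genes, which encode transcription factors that maintain neural progenitors, and near ID4, an inhibitor of differentiation. LINC-SOX1-1 had 2.50 and 1.74 CPM in the OSVZ and 12.3 and 9.89 CPM in the ISVZ (log2 fold change -2.38, SE 0.51, adjusted p = 0.0022). LINC-SOX1-3 had 2.56 and 1.16 CPM against 13.5 and 7.28 CPM (-2.48, SE 0.72, adjusted p = 0.027). As in nearly all calls, the replicates of one layer did not overlap with those of the other for either feature. Both features were low in the IZ, at 2.00 CPM at most. LINC-SOX2-3 had 0.550 and 0.810 CPM in the OSVZ, 2.74 and 4.72 CPM in the ISVZ and 8.07 and 9.77 CPM in the VZ (-2.45, SE 0.73, adjusted p = 0.030). SOX9-AS-1 had 1.73 and 0.955 CPM in the OSVZ, 6.63 and 12.5 CPM in the ISVZ and 10.4 and 18.2 CPM in the VZ (-2.83, SE 0.57, adjusted p = 0.0013). For both, the order of the layers was VZ, ISVZ, OSVZ in each replicate number. LINC-ID4-10 had 0.165 and 0.0289 CPM in the OSVZ against 2.56 and 1.19 CPM in the ISVZ (-4.21, SE 1.15, adjusted p = 0.018), and had no count in the IZ. The fold changes held their sign without OSVZ replicate 2, at -2.39 for SOX9-AS-1, -2.07 for LINC-SOX1-1, -2.68 for LINC-SOX2-3, -3.40 for LINC-ID4-10 and -1.95 for LINC-SOX1-3. The calls were lost to different degrees when a library was left out. Without OSVZ replicate 2 none of the 5 passed (adjusted p 0.0608 for SOX9-AS-1, 0.0798 for LINC-SOX1-1, 0.144 for LINC-SOX2-3, 0.239 for LINC-ID4-10 and 0.325 for LINC-SOX1-3). Without ISVZ replicate 1, LINC-SOX1-3 (0.206) and LINC-ID4-10 (0.122) also lost their call, and so did LINC-SOX1-3 (0.0573) and LINC-SOX2-3 (0.226) without OSVZ replicate 1, and LINC-SOX2-3 (0.241) without ISVZ replicate 2.

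Basal radial glia are the progenitors for which the OSVZ is known. Of 26 tested features named after genes listed for them, 2 were called, where 1.31% of all noncoding features were. Both were higher in the ISVZ and named after the same gene. The median log2 fold change over the 26 was -1.55 (-0.631 with empty layers at the floor). The summed level was 9.19 and 6.54 CPM in the OSVZ, 29.7 and 34.9 CPM in the ISVZ, 51.9 to 68.0 CPM in the VZ and 6.36 to 10.3 CPM in the IZ, so that the OSVZ libraries lay within the range of the IZ. That gene was TMEM132B, which encodes a transmembrane protein. LINC-TMEM132B-23 had 1.79 and 1.33 CPM in the OSVZ against 7.06 and 10.6 CPM in the ISVZ (-2.50, SE 0.46, adjusted p = 0.00047), and it kept its call without any 1 of the 4 libraries. LINC-TMEM132B-26 had 0.578 and 0.839 CPM against 2.02 and 6.85 CPM (-2.64, SE 0.75, adjusted p = 0.021), and the call was lost without ISVZ replicate 2 (0.456) and without OSVZ replicate 1 (0.186) or 2 (0.127). These features share a locus name and are not independent of each other. No feature named after HOPX, PTPRZ1 or TNC was called, and FAM107A was among 4 genes of the list (with EEPD1, IL6ST and PDGFD) whose features had no count in the 4 libraries. The labels of the layers could be set against markers only through such noncoding features.

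Intermediate progenitor genes gave 15 tested features, of which 1 was called, against 1.31% called of all noncoding features. The summed level was higher in the OSVZ (33.7 and 33.0 CPM) than in the ISVZ (22.0 and 24.8 CPM), with 30.3 to 35.9 CPM in the VZ and 10.5 to 22.6 CPM in the IZ, and the median log2 fold change was 0.718 (0.767 with empty layers at the floor), with 9 of 15 features above 0. The called feature went the other way. PENK-AS-1, named after the enkephalin precursor gene, had no count in either OSVZ library and 0.541 and 1.25 CPM in the ISVZ (15 and 41 counts), at least 21.1-fold higher there when the OSVZ is set to 3 counts over both libraries (adjusted p = 0.012). It was low in the VZ, at 0.0638 and 0.148 CPM, and had no count in the IZ and MZ. The call was lost without ISVZ replicate 2 (0.0687) and without OSVZ replicate 1 (0.102) or 2 (0.123).

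Cell cycle genes gave 34 tested features and 2 calls, against 1.31% called of all noncoding features. Both calls were for B-type cyclins, which drive entry into mitosis. The median log2 fold change of the 34 features was -1.28 (-1.27 with empty layers at the floor). Their summed level was 18.7 and 17.9 CPM in the OSVZ, 44.4 and 54.5 CPM in the ISVZ, 95.7 to 122 CPM in the VZ and 8.25 to 9.91 CPM in the IZ, in descending order from the ventricle outwards with no overlap between layers. CCNB1-AS-1 had 10.4 and 9.61 CPM in the OSVZ, 24.4 and 24.5 CPM in the ISVZ and 61.5 and 80.4 CPM in the VZ (-1.29, SE 0.36, adjusted p = 0.019). CCNB2-AS-2 had 1.76 and 1.50 CPM in the OSVZ and 3.64 and 5.78 CPM in the ISVZ (-1.53, SE 0.46, adjusted p = 0.034). The 2 layers did not overlap in either feature, as in nearly all calls, and both calls lay near the threshold. Without ISVZ replicate 1, ISVZ replicate 2, OSVZ replicate 1 or OSVZ replicate 2 the adjusted p of CCNB1-AS-1 was 0.0792, 0.116, 0.0961 and 0.202, and that of CCNB2-AS-2 was 0.355, 0.130 and 0.284 without the last 3 of these.

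Projection neuron genes gave 105 tested features, of which 3 were called, all higher in the OSVZ, against 1.31% called of all noncoding features. The median log2 fold change of the 105 was 0 (0.0493 with empty layers at the floor), as over all noncoding features. LINC-NEUROD2-1, named after a neuronal differentiation factor, had 4.65 and 5.93 CPM in the OSVZ and 0.433 and 0.731 CPM in the ISVZ (3.17, SE 0.79, adjusted p = 0.0082). NRP1-AS-2, named after the semaphorin receptor neuropilin-1, had 1.13 and 1.59 CPM against 0.0360 and 0.183 CPM (3.55, SE 1.06, adjusted p = 0.030). Both features were higher in both OSVZ libraries than in both ISVZ libraries, as were nearly all features called higher in the OSVZ. LINC-NEUROD2-1 lost its call without ISVZ replicate 1 (0.119), and NRP1-AS-2 lost it without ISVZ replicate 1 (0.277) or 2 (0.072) and without OSVZ replicate 1 (0.054) or 2 (0.118).

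The lists of axon guidance, adhesion, and receptor and channel genes each held 1 called feature, higher in the OSVZ, of 68, 91 and 71 tested, a share near the 1.31% of all noncoding features. PLXNA4-AS-9, named after plexin A4, a semaphorin co-receptor, had 103 and 149 CPM in the OSVZ, 32.1 and 34.2 CPM in the ISVZ and 2.36 and 2.23 CPM in the VZ (1.92, SE 0.29, adjusted p = 4.79e-05). The OSVZ held its highest mean, above the IZ (75.9 and 110 CPM), although OSVZ replicate 1 lay below IZ replicate 2. LINC-OPCML-1, named after a cell adhesion molecule of neurons, had 2.97 and 2.63 CPM in the OSVZ against 0.108 and 0.183 CPM in the ISVZ (4.22, SE 1.04, adjusted p = 0.0076). KCNQ3-AS-6, named after a subunit of the potassium channel that carries the M current, had 3.03 and 3.73 CPM against 1.12 and 1.40 CPM (1.42, SE 0.44, adjusted p = 0.038). All 3 were higher in both OSVZ libraries than in both ISVZ libraries, as were nearly all features called higher in the OSVZ. PLXNA4-AS-9 kept its call without any 1 of the 4 libraries, LINC-OPCML-1 lost it without ISVZ replicate 1 (0.106) or 2 (0.072), and KCNQ3-AS-6 lost it without each of them (ISVZ replicates 0.255 and 0.116, OSVZ replicates 0.0746 and 0.185). The medians of the 68, 91 and 71 features tested in these lists were 0.0787, 0 and 0 (0.386, 0 and 0 with empty layers at the floor). Extracellular matrix genes (38 tested) and morphogen and Notch signalling genes (59 tested) held 0 called features by edgeR and by DESeq2, with 2 and 3 at an unadjusted p under 0.05, and both medians were 0. Of their annotated features, 207 of 269 and 285 of 367 had no count in the 4 libraries, so most could show no difference.

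**Figure D2:**
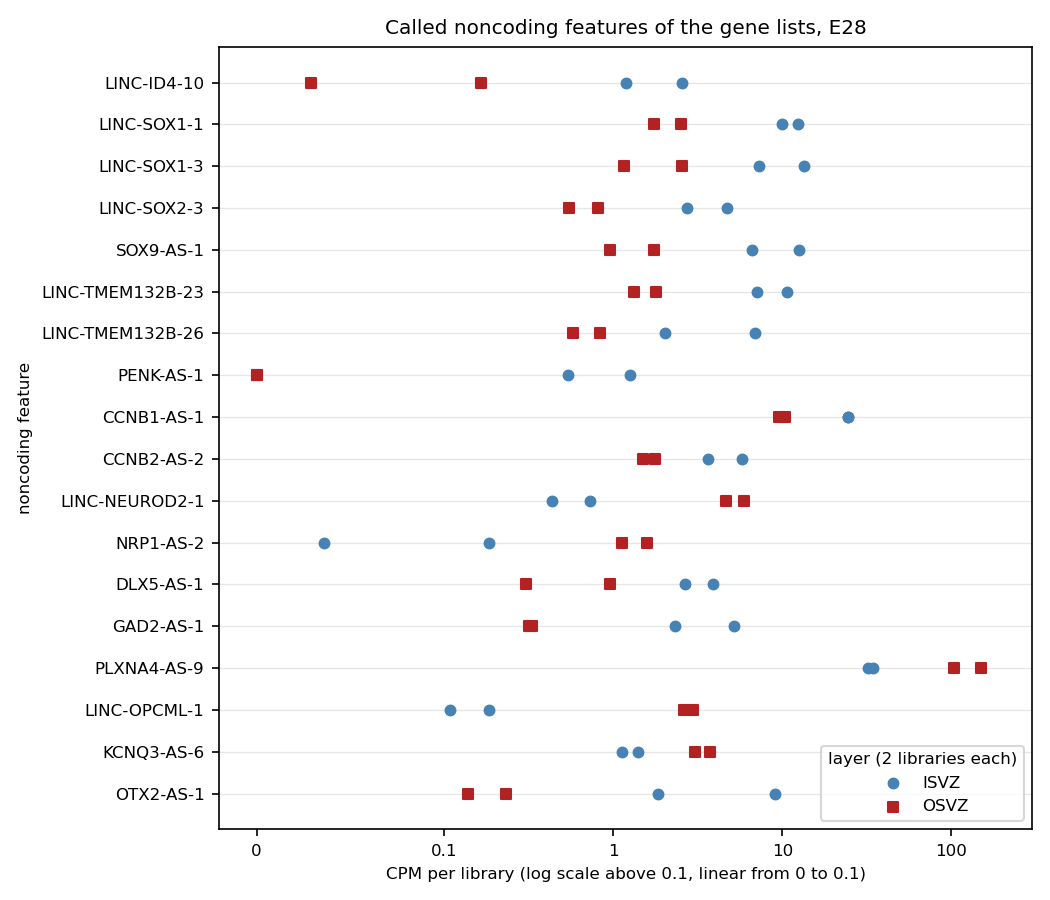
The plot of list features gives the CPM of each E28 OSVZ library (red squares) and ISVZ library (blue circles) for the called noncoding list features described in the text, on an axis that is linear up to 0.1 CPM and logarithmic above. In each feature the squares and circles do not overlap, as for 19.6% (OSVZ higher) and 24.7% (ISVZ higher) of all tested features, and PENK-AS-1 has no count in the OSVZ.

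Interneuron genes gave 34 tested features with 2 calls, both higher in the ISVZ, against 1.31% called of all noncoding features. The median log2 fold change of the 34 was -1.63 (-1.12 with empty layers at the floor). GAD2-AS-1, named after a GABA-synthesising enzyme, had 0.330 and 0.318 CPM in the OSVZ, 5.15 and 2.31 CPM in the ISVZ and 0.0319 and 0.148 CPM in the VZ (-3.51, SE 1.06, adjusted p = 0.037). DLX5-AS-1, named after a homeobox gene of ventral forebrain neurons, had 0.303 and 0.955 CPM in the OSVZ, 3.89 and 2.65 CPM in the ISVZ and 0.0638 and 0.124 CPM in the VZ (-2.38, SE 0.68, adjusted p = 0.023). Both had their highest mean in the ISVZ and were near 0 in the VZ, as was PENK-AS-1. DLX6 is on the list but had no feature under that spelling. DLX6A-AS-1, close to it in name but not matched to the list, was chosen after its values were seen. It had the same order, with 67.5 and 39.3 CPM in the OSVZ, 552 and 296 CPM in the ISVZ and 12.4 and 8.41 CPM in the VZ (-2.99, SE 0.79, adjusted p = 0.023). It had 49.6 and 40.1 CPM in the IZ and 115 and 70.1 CPM in the MZ. The summed level of the list, which leaves out DLX6A-AS-1, was 9.27 and 5.61 CPM in the OSVZ, 23.8 and 11.9 CPM in the ISVZ, 3.88 to 6.92 CPM in the VZ and 11.8 to 14.7 CPM in the IZ. SP8 was the 1 gene whose features had no count in the 4 libraries. ISVZ replicate 1 was the higher of the ISVZ pair for each of these 3 features. GAD2-AS-1 lost its call without any 1 of the 4 libraries (ISVZ replicates 0.217 and 0.0566, OSVZ replicates 0.204 and 0.254) and DLX5-AS-1 without ISVZ replicate 1 (0.140) or 2 (0.0521) or OSVZ replicate 1 (0.274). The share of interneurons in the cut areas was not measured, and its part in these differences was not tested.

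Features named after markers of other cells held 1 call. OTX2-AS-1, from the list of choroid plexus and cortical hem and named after a forebrain homeobox gene, had 0.138 and 0.231 CPM in the OSVZ, 1.84 and 9.07 CPM in the ISVZ and 9.15 and 15.3 CPM in the VZ (-4.87, SE 1.27, adjusted p = 0.016). Its level in ISVZ replicate 2 was close to VZ replicate 1, and without that library, OSVZ replicate 1 or OSVZ replicate 2 the call was lost (0.203, 0.158 and 0.131). The summed level of that list did not separate the layers, with 28.9 and 25.3 CPM in the OSVZ and 21.6 and 28.1 CPM in the ISVZ, and the features of 6 of its 10 genes with a feature, TTR among them, had no count in the 4 libraries. The 7 oligodendrocyte, 9 endothelial, 7 microglia and blood and 12 Cajal-Retzius features tested held 0 calls by edgeR and by DESeq2, and 0, 0, 0 and 1 of them had an unadjusted p under 0.05. The summed microglia and blood level was 5.72 and 7.99 CPM in the OSVZ against 13.9 and 8.34 CPM in the ISVZ, with C1QA, C1QB, CSF1R, CX3CR1, HBB, IKZF1 and SPI1 features at 0 counts. The endothelial level was 0.853 and 1.04 CPM against 0.541 and 0.578 CPM, with the features of 9 of 16 genes, CLDN5, KDR and CDH5 among them, at 0. The oligodendrocyte level was 1.43 and 0.839 CPM against 1.44 and 1.28 CPM, and the Cajal-Retzius level 5.45 and 5.53 CPM against 3.06 and 4.29 CPM.

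Outside the lists, 3 intergenic features named after RWDD3, a gene of the SUMO modification pathway, were higher in the OSVZ, the only gene with as many as 3 called features. LINC-RWDD3-4 had 10.9 and 6.71 CPM in the OSVZ and 0.0721 and 0.0913 CPM in the ISVZ (6.68, SE 0.89, adjusted p = 1.09e-05). It was at 0.0319 and 0.0247 CPM in the VZ and at 31.3 and 11.5 CPM in the IZ. LINC-RWDD3-5 had 4.04 and 1.07 CPM against 0.0721 and 0.0609 CPM (5.20, SE 0.97, adjusted p = 0.00051), and LINC-RWDD3-8 had 99 counts in the OSVZ and 1 in the ISVZ, a ratio of 84.6 (95% counting interval 14.8 to 3370, adjusted p = 8.94e-05). All 3 kept their call without any 1 of the 4 libraries. Whether they are parts of 1 transcript was not tested.

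The features with the largest differences towards the OSVZ also included antisense ones. HPCA-AS-1 and HPCA-AS-2 are named after hippocalcin, a neuronal calcium sensor. HPCA-AS-1 had 1.13 and 2.43 CPM in the OSVZ and 0 and 0.0609 CPM in the ISVZ, with 125 and 2 counts and a ratio of 53.4 (95% counting interval 14.5 to 446, adjusted p = 0.0013). HPCA-AS-2 had 1.49 and 2.17 CPM against 0.0721 and 0.0913 CPM (4.42, SE 0.81, adjusted p = 0.00039). PPFIA3-AS-1, named after a presynaptic scaffold protein of the liprin family, had 2.06 and 1.53 CPM against 0.0721 and 0.152 CPM (3.93, SE 0.55, adjusted p = 1.27e-05). These 3 features kept their calls without any 1 of the 4 libraries, and their means were higher still in the IZ, at 1.68 and 2.83, 5.09 and 2.28, and 6.89 and 4.77 CPM. CNR1-AS-1, named after the cannabinoid receptor, had 23 and 43 counts in the OSVZ and none in the ISVZ or VZ, at least 18.95-fold higher than the ISVZ at its floor (adjusted p = 0.0080), and lost its call without ISVZ replicate 1 (0.0781) or 2 (0.0961). TM9SF3-AS-1 had 0.935 and 0.174 CPM in the OSVZ and 0 and 0.0304 CPM in the ISVZ, with 40 counts against 1 (ratio 34.2, interval 5.79 to 1380, adjusted p = 0.040), and lost its call without ISVZ replicate 1 (0.280), ISVZ replicate 2 (0.132) or OSVZ replicate 1 (0.388).

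The remaining features with the largest differences towards the OSVZ were named after genes of multicopy families, whose reads can be split between near-identical copies, and are uncertain for that reason. LINC-HSPA8-34 had 1.13 and 2.52 CPM in the OSVZ against 0.0721 and 0.0913 CPM in the ISVZ (4.41, SE 0.84, adjusted p = 0.00062), and LINC-RPL5-43 had 1.49 and 4.25 CPM against 0.180 and 0.0609 CPM (4.56, SE 1.05, adjusted p = 0.0043). LINC-HIS-71-12 had 0.880 and 0.260 CPM in the OSVZ and no count in the ISVZ, at least 11.5-fold higher (adjusted p = 0.016). LINC-HSPA8-34 kept its call without any 1 of the 4 libraries. LINC-RPL5-43 lost it without ISVZ replicate 2 (0.0927) or OSVZ replicate 2 (0.0588), and LINC-HIS-71-12 without ISVZ replicate 1 (0.120), ISVZ replicate 2 (0.144) or OSVZ replicate 1 (0.0992). In all, 15 of the 142 called noncoding features were named after ribosomal protein, retroelement or histone genes.

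Most of the 12 noncoding features with the largest differences towards the ISVZ lay outside the lists. LINC-SALL3-2, named after a spalt-family transcription factor, had 0.0275 and 0.289 CPM in the OSVZ, 1.26 and 2.50 CPM in the ISVZ and 2.23 and 4.43 CPM in the VZ (-3.55, SE 1.01, adjusted p = 0.024). DNMT3A-AS-3, named after a de novo DNA methyltransferase, had 0.0275 and 0.0868 CPM in the OSVZ, 0.541 and 2.53 CPM in the ISVZ and 1.56 and 3.91 CPM in the VZ (-4.68, SE 1.22, adjusted p = 0.012). In both, replicate 2 exceeded replicate 1 in the ISVZ and in the VZ. LINC-HMGB3-6 had 0.138 and 0.0579 CPM in the OSVZ and 2.13 and 2.31 CPM in the ISVZ (-4.45, SE 1.24, adjusted p = 0.022), and LINC-CBX3-5 had 2 counts in the OSVZ and 36 in the ISVZ (ratio 21.1, interval 5.42 to 181, adjusted p = 0.0059). Both are named after chromatin proteins with many processed copies in mammalian genomes and are uncertain. LINC-HMGB3-6 lost its call without any 1 of the 4 libraries (ISVZ replicates 0.0575 and 0.0827, OSVZ replicates 0.101 and 0.231), and LINC-SALL3-2 lost it without ISVZ replicate 2 (0.176) or OSVZ replicate 1 (0.251). Without ISVZ replicate 2, OSVZ replicate 1 or OSVZ replicate 2, DNMT3A-AS-3 (0.237, 0.148 and 0.0807) and LINC-CBX3-5 (0.0757, 0.0720 and 0.0896) lost theirs.

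LINC-KCNA4-5, named after a voltage-gated potassium channel, had the smallest adjusted p of the 12 features with the largest differences towards the ISVZ. It had 0.0275 and 0 CPM in the OSVZ and 1.23 and 2.13 CPM in the ISVZ, with 1 count against 104 (ratio 122, interval 21.4 to 4850, adjusted p = 0.00034), and kept its call without any 1 of the 4 libraries. Its level was 0.893 and 3.29 CPM in the VZ, 0.419 and 0.553 CPM in the IZ, and its highest mean was in the MZ, at 3.58 and 2.73 CPM. LINC-LYRM9-5 peaked in the ISVZ, with 2.38 and 2.50 CPM there, 0.330 and 0.0579 CPM in the OSVZ and 0.128 and 0 CPM in the VZ (-3.62, SE 1.13, adjusted p = 0.041), and lost its call without any 1 of the 4 libraries (ISVZ replicates 0.0999 and 0.131, OSVZ replicates 0.0671 and 0.362). Features of ribosomal protein and retroelement names, uncertain as above, completed the group. LINC-RPL36A-33 had 0.330 and 0.116 CPM in the OSVZ against 3.53 and 4.08 CPM in the ISVZ (-4.07, SE 0.95, adjusted p = 0.0052) and lost its call without OSVZ replicate 2 (0.123). LINC-RPL6-520 had no count in the OSVZ and 0.613 and 0.670 CPM in the ISVZ, at least 15.2-fold higher (adjusted p = 0.045), with no call without any 1 of the 4 libraries (0.0943 to 0.254). LINC-LORF2-7 had 98 counts in the ISVZ and 1 in the OSVZ (ratio 115, interval 20.1 to 4580, adjusted p = 0.047), but 92 of the 98 were in ISVZ replicate 1, and the call was lost without that library (0.578) and without OSVZ replicate 1 (0.282) or 2 (0.181).

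Among the TSDBGID features, TSDBGID.9560 had 150 and 42.1 CPM in the OSVZ against 3.64 and 1.80 CPM in the ISVZ (5.15, SE 0.88, adjusted p = 0.00084), and TSDBGID.24739 had 37.1 and 119 CPM against 1.30 and 6.03 CPM (4.40, SE 0.89, adjusted p = 0.0033). The layers did not overlap in either, but the replicates of the OSVZ differed widely and in opposite order, an order that the IZ, CP and MZ shared. TSDBGID.24739 lost its call without ISVZ replicate 1 (0.0543). The 2 largest called differences towards the ISVZ were each carried by 1 library. TSDBGID.27082 had 614 CPM in ISVZ replicate 1, 0.244 CPM in ISVZ replicate 2 and 0.358 and 0.463 CPM in the OSVZ, and TSDBGID.26616 had 2310, 13.1, 23.0 and 41.6 CPM in the same order. Without ISVZ replicate 1 their log2 fold changes were 0.74 and 1.30, towards the OSVZ, with adjusted p of 0.942 and 0.719. LINC-RPL7L1-6, noticed after its values were seen, was likewise called on ISVZ replicate 1 alone (3.21 CPM, against no count in the other 3 libraries).

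The VZ and IZ lie on either side of the subventricular zone, and their libraries took no part in the contrast between OSVZ and ISVZ apart from the filter, the scaling and the shared estimate of spread. At E28, 6612 features (24.6%) differed between the IZ and VZ, 12.0% higher in the IZ and 12.7% higher in the VZ. Of the 1015 features higher in the OSVZ, 931 (91.7%) were called higher in the IZ and 0 in the VZ by edgeR and by DESeq2, with 0 at an unadjusted p under 0.05 either. Of the 1384 higher in the ISVZ, 1232 (89.0%) were called higher in the VZ and 12 (0.867%) in the IZ. Among noncoding features, 69 of the 82 higher in the OSVZ (84.1%) were called higher in the IZ, where 5.16% of all tested noncoding features were, and 39 of the 60 higher in the ISVZ (65.0%) were called higher in the VZ, where 2.44% were. The age of the duplicated VZ file, used here as replicate 2 of E28, was not tested against the other VZ libraries. With both copies left out 4876 features differed, with 864 of the 1015 (85.1%) called higher in the IZ and 1138 of the 1384 (82.2%) in the VZ. The single noncoding feature of the ISVZ group that was called higher in the IZ was CHSY3-AS-1, at 0.144 and 0.122 CPM in the ISVZ, 0.226 and 0.138 CPM in the IZ and no count in the OSVZ and VZ. The labels do not say whether layers with the same replicate number came from 1 animal, and the deviations of such libraries went together at E28.

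The features called higher in the OSVZ had their highest mean in one of 4 layers. Of the 1015, 173 (17.0%, against 9.03% of all tested features) were highest in the OSVZ, 121 in the IZ, 360 in the CP and 361 in the MZ. Of the 1384 higher in the ISVZ, 854 (61.7%, against 21.9% of all tested) were highest in the VZ and 459 (33.2%, against 14.5%) in the ISVZ, and the other 71 lay in the IZ (1), CP (29) and MZ (41). The contrast that chose the features fixes part of this order, and the counts describe means of 2 libraries, with no test between neighbours. Of the 82 noncoding features, 10 were highest in the OSVZ (10.4% of all tested noncoding features were), 25 in the IZ, 22 in the CP and 25 in the MZ, and of the 60, 33 were highest in the VZ, 21 in the ISVZ, 2 in the CP and 4 in the MZ. The median level of the 82 went from 0.144 and 0.185 CPM in the VZ and 0.270 and 0.441 CPM in the ISVZ to 2.76 and 2.66 CPM in the OSVZ and 3.27 and 3.07 CPM in the IZ. That of the 60 went from 3.87 and 5.22 CPM in the ISVZ to 0.825 and 0.897 CPM in the OSVZ, next to 0.870 and 0.656 CPM in the IZ.

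**Figure D3:**
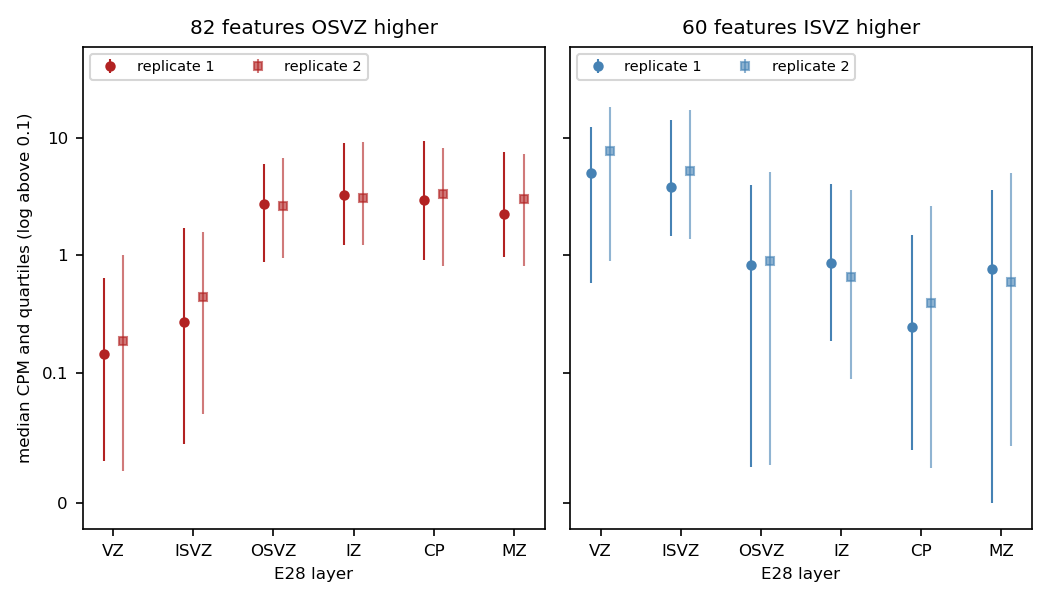
The plot through the layers gives, for each of the 12 E28 libraries, the median and quartiles of the CPM over the 82 noncoding features higher in the OSVZ (left) and the 60 higher in the ISVZ (right), on an axis that is linear up to 0.1 CPM and logarithmic above. The OSVZ and ISVZ values are those that chose the features, while the other 8 libraries entered it only through the filter, the scaling and the shared estimate of spread, and the OSVZ medians lie near those of the IZ in both panels.

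The 10 noncoding features with their highest mean in the OSVZ were PLXNA4-AS-9, NRP1-AS-2, LINC-REPS1-3, LINC-AJAP1-2, LINC-AJAP1-6, LINC-HIS-71-7, LY6E-AS-1, SREBF1-AS-1, SRRM4-AS-3 and ZNF238-AS-1, of which all but the first 3 were picked after their values were seen. LINC-REPS1-3, named after an endocytosis protein, had 266 and 273 CPM in the OSVZ, 93.9 and 87.3 CPM in the ISVZ, 14.2 and 14.4 CPM in the VZ and 202 and 178 CPM in the IZ (1.57, SE 0.27, adjusted p = 0.00018), and both OSVZ libraries lay above all other E28 libraries. LINC-AJAP1-2 had 3.77 and 3.73 CPM in the OSVZ, 0.216 and 0.304 CPM in the ISVZ and 1.80 and 2.38 CPM in the IZ (3.82, SE 1.12, adjusted p = 0.027). It likewise lay above all other layers in both libraries. SREBF1-AS-1, named after a regulator of lipid synthesis, had 3.77 and 6.57 CPM in the OSVZ, 1.19 and 1.55 CPM in the ISVZ and 2.90 and 2.76 CPM in the IZ (1.91, SE 0.52, adjusted p = 0.017). SRRM4-AS-3, named after a neuronal splicing regulator, had 9.96 and 17.7 CPM in the OSVZ and 3.06 and 4.87 CPM in the ISVZ (1.80, SE 0.51, adjusted p = 0.023), with IZ libraries of 10.4 and 11.5 CPM between the OSVZ libraries.

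Some called features of the ISVZ had many counts and differed by less. LINC-CBX5-1, picked after its values were seen, had 694 and 567 CPM in the OSVZ and 1060 and 1190 CPM in the ISVZ, with 926 and 1000 CPM in the VZ (-0.84, SE 0.17, adjusted p = 0.0010). LINC-GLUL-1, picked likewise and named after glutamine synthetase, had 49.5 and 49.7 CPM against 86.9 and 85.8 CPM, with 84.0 and 85.1 CPM in the VZ (-0.80, SE 0.19, adjusted p = 0.0054). LINC-ZFHX4-6, picked likewise and named after a zinc finger homeobox gene, had 17.8 and 6.89 CPM against 52.8 and 66.0 CPM, with 85.2 and 121 CPM in the VZ (-2.27, SE 0.47, adjusted p = 0.0024). The ISVZ libraries lay just above those of the VZ for the first 2 and below them for the last.

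At E42 the same layers differed in 208 features (0.774%), 128 towards the OSVZ and 80 towards the ISVZ, and in 649 with the replicate number as a block. The count at E42 depended on the fit. It was also higher by DESeq2, with only the libraries of the stage and with only the groups compared, as the closing section gives. The E28 count was lower with only the libraries of its stage. The counts therefore do not measure how far the difference fell between the ages, and the shared calls below carry the same limit. Of the 1015 features higher in the OSVZ at E28, 34 were called in the same direction at E42 (0.477% of all features were called higher in the OSVZ) and 11 in the other, and 634 (62.5%) had the same sign. Of the 1384 higher in the ISVZ, 21 were called in the same direction (background 0.298%) and 7 in the other, and 693 (50.1%) had the same sign. Of all tested features, 46.3% were positive and 50.5% negative at E42. Single libraries left out lowered the count at E42 to 73 (ISVZ replicate 1), 58 (ISVZ replicate 2) and 62 (OSVZ replicate 1). The change of the difference from E28 to E42, tested itself, was called in 1066 features (3.97%), or 2241 with the block. Of the E28 features higher in the OSVZ, 373 shifted towards the ISVZ (1.65% of all features did), and of those higher in the ISVZ, 529 shifted towards the OSVZ (2.32% of all). The E28 libraries that chose these features also enter the change, so these counts are descriptions. The count of 1066 fell to 540 without E28 ISVZ replicate 2, 611 without E28 OSVZ replicate 2, 618 and 582 without replicates 1 and 2 of the ISVZ at E42, and 511 without OSVZ replicate 1 at E42.

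Noncoding features called in the same direction at both ages included LINC-HSPA8-34 and LINC-PLCL1-8, higher in the OSVZ, and LINC-HINT1-9, higher in the ISVZ. LINC-HSPA8-34 had 0.386 and 0.622 CPM in the OSVZ at E42 against 0.0240 and 0.0358 CPM (3.91, SE 0.89, adjusted p = 0.024). LINC-PLCL1-8, named after a phospholipase C-like protein, had 20 counts in the OSVZ and 1 in the ISVZ at E28 (ratio 17.1, interval 2.73 to 708, adjusted p = 0.025), and 1.39 and 0.846 CPM against 0.0240 and 0.0896 CPM at E42 (4.12, SE 0.71, adjusted p = 0.0020). LINC-HINT1-9 had 1.10 and 0.0289 CPM in the OSVZ and 4.04 and 3.14 CPM in the ISVZ at E28 (-2.65, SE 0.82, adjusted p = 0.038), and 0.116 and 0.448 CPM against 3.02 and 9.64 CPM at E42 (-4.41, SE 0.89, adjusted p = 0.0089). At E28 the layers did not overlap in any of these 3, as in nearly all calls. At E28 LINC-PLCL1-8 lost its call without any 1 of the 4 libraries (ISVZ replicates 0.206 and 0.0821, OSVZ replicates 0.0770 and 0.0888), and LINC-HINT1-9 without ISVZ replicate 1 (0.150) or 2 (0.0958) or OSVZ replicate 2 (0.362).

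Of the progenitor features that were lower in the OSVZ at E28, several had the opposite order at E42 and others kept their sign. SOX9-AS-1 had 11.4 and 12.7 CPM in the OSVZ at E42 and 8.79 and 6.18 CPM in the ISVZ (0.69, SE 0.53, adjusted p = 0.847), and its difference changed by 3.52 (adjusted p = 0.0063). LINC-TMEM132B-26 had 8.81 and 5.52 CPM against 3.62 and 1.76 CPM (1.42, SE 0.70, adjusted p = 0.607), a change of 4.06 (adjusted p = 0.018). CCNB2-AS-2 had 5.14 and 6.02 CPM against 2.76 and 3.56 CPM (0.82, SE 0.45, adjusted p = 0.684), a change of 2.35 (adjusted p = 0.033). In these 3 the fold change at E42 was towards the OSVZ, but the difference at E42 itself did not pass the test. For LINC-SOX1-1, LINC-SOX1-3 and LINC-SOX2-3 the difference at E42 was -0.43, -1.01 and -0.71 (adjusted p 0.930, 0.789 and 0.902), and the change between the ages did not pass the test either (adjusted p 0.129, 0.559 and 0.458). CCNB1-AS-1, LINC-ID4-10 and PENK-AS-1 also kept their sign at E42, at -0.27, -0.09 and -3.7, without a call. Their change between the ages did not pass the test (adjusted p 0.353, 0.139 and 0.445).

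**Figure D4:**
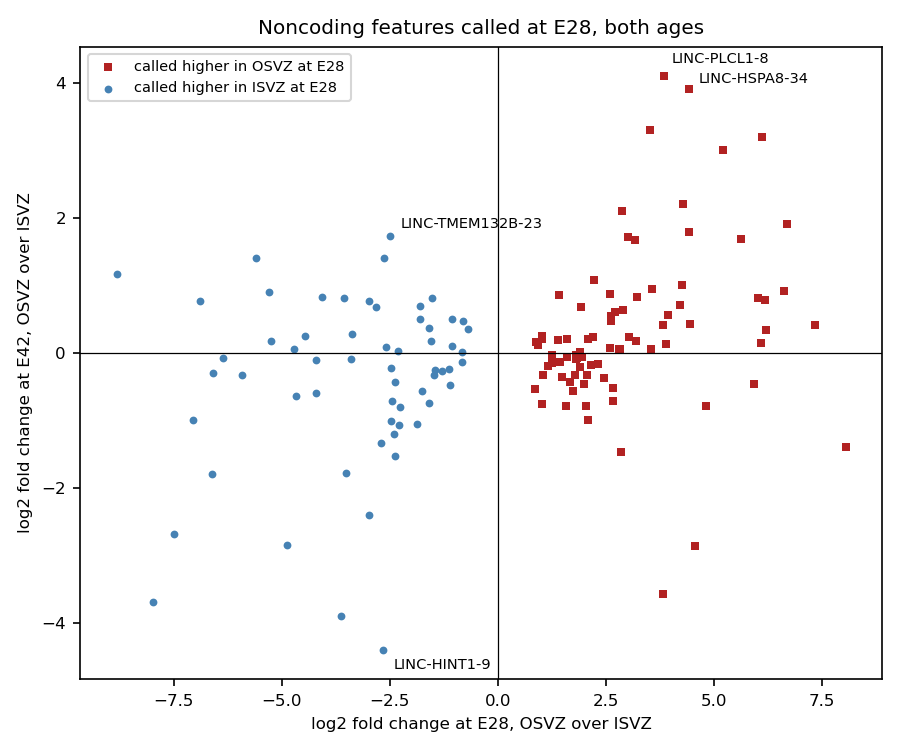
The plot of both ages sets the log2 fold change of the OSVZ over the ISVZ at E42 (vertical) against that at E28 (horizontal) for the 142 noncoding features called at E28, with red squares for those higher in the OSVZ and blue circles for those higher in the ISVZ at E28. The values at E28 chose the features. At E42, 49 of the 82 had the same sign, where 39.1% of all tested noncoding features were positive. Of the 60, 34 had the same sign, near the 55.1% of all tested noncoding features that were negative. LINC-TMEM132B-23 was among those with the opposite sign.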

How the data were processed

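RNA of laser-cut cortical layers was sequenced by the authors, who trimmed the reads, aligned them to the tree shrew genome with HISAT2, and used HTSeq for counting with annotation TS_3.0. The strand setting is not given in the sources used here. The deposited values are raw counts per feature, and the counter's lines that name no gene were removed. Duplicates from PCR could not be removed from these counts, and intervals and floors cover counting error only. Groups followed the labels. In R 4.3.3 with edgeR 4.0.16, features were filtered by filterByExpr (minimum count 10), scaled by TMM, and fitted with glmQLFit (robust) in 1 model of 35 libraries and 18 groups with 17 residual degrees of freedom, at a common biological coefficient of variation of 0.378. Replicate 2 of the VZ at E42 was left out because its counts are identical to those of replicate 2 of the VZ at E28. To which age the file belongs was not tested. SE is the log2 fold change over the square root of F. Replicates differed by far more than sampling noise (chi-square per degree of freedom 32.6 in the OSVZ and 41.2 in the ISVZ). Deviations of libraries with the same replicate number correlated above 0.1 for all 15 pairings of E28 layers (0.165 to 0.26). At E42 they did so for 10 of 15 (-0.0881 to 0.208). On these values alone the number was treated as pairing the libraries of E28, but only in the fit with the replicate block. The main fit, which gave the fold changes and adjusted p of the named features, has no such pairing.

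On simulated counts (25364 features), the test found 26% of 100 features changed by a log2 fold change of 1 and 62% of 100 changed by 2, with 5 false among 93 calls. Far fewer features were changed there than were called in the data (8.93%), and the simulated libraries were drawn independently. The shares found therefore do not carry over to the data. The changed features were drawn only from those above a minimum mean count. The shares found therefore do not apply to features with a handful of counts, as most tested noncoding features were. Lists were read through the symbol in a feature's name and described by counts and medians, with no set test. The members, lists and tests were chosen with earlier results of these data known. Named noncoding features were the 12 with the largest fold change per direction among calls with at least 0.5 CPM in the higher layer and no overlap, all calls on a list, genes with 3 or more calls, calls shared with E42, and the 6 firmest changes between E28 and E42. TSDBGID features were named if the 2 largest per direction at 5 CPM or more. DESeq2 1.42.0 and the other alternatives are given in the closing section. TSDBGID identifiers were not found in the RefSeq table used, while 104 of the 129 symbols with a called noncoding feature were. 1 noncoding feature that met these rules is not reported here. Plots used Python 3.11.15 and matplotlib 3.10.9.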

Additional observations from a re-analysis of the deposited data

Results flagged for a closer look

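The difference between OSVZ and ISVZ was itself different at E28 and E42 in 1066 features by the edgeR interaction test, with 624 shifted towards the OSVZ at E42 and 442 towards the ISVZ. The 6 noncoding features with the firmest change are given here, and what lies behind these changes was not tested.

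LINC-TMEM132B-23, low in the E28 OSVZ, had 9.12 and 9.03 CPM in the OSVZ at E42 against 3.52 and 1.93 CPM in the ISVZ, a log2 fold change of 1.74 (SE 0.45, adjusted p = 0.061) where it had been -2.50, so that the difference shifted by 4.23 (adjusted p = 0.00016). The fold change had the opposite sign at the later age, but the difference at E42 itself did not pass the test. PFKP-AS-1, named after a phosphofructokinase of glycolysis, had 0.853 and 0.376 CPM in the OSVZ and 0.144 and 0.183 CPM in the ISVZ at E28 (1.88, SE 0.68, adjusted p = 0.091) but 0.155 and 0.672 CPM against 3.52 and 4.28 CPM at E42 (-3.15, SE 0.56, adjusted p = 0.0029), a change of -5.03 (adjusted p = 0.00075).

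The other 4 were called at E28 and not at E42. MAP4-AS-2, named after a microtubule-associated protein, had 39.7 and 36.6 CPM in the OSVZ and 12.4 and 8.22 CPM in the ISVZ at E28, and 38.0 and 32.8 CPM against 34.4 and 35.8 CPM at E42, a change of -1.88 (adjusted p = 0.00012). LINC-REPS1-3 had 16.4 and 13.6 CPM in the OSVZ at E42 against 25.2 and 26.4 CPM in the ISVZ, a change of -2.36 (adjusted p = 0.00028). LINC-LORF2-107, with a retroelement name and uncertain for that reason, had 46.1 and 37.1 CPM against 10.4 and 10.5 CPM at E28 and 11.3 and 15.6 CPM against 16.6 and 20.5 CPM at E42, a change of -2.45 (adjusted p = 8.4e-05). RPL6-AS-34, with a ribosomal protein name and likewise uncertain, had 5.75 and 5.32 CPM in the OSVZ against 17.3 and 37.2 CPM in the ISVZ at E28 and 29.3 and 24.7 CPM against 23.8 and 29.0 CPM at E42, a change of 2.33 (adjusted p = 0.0014).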

How the results depend on the processing

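With 2 libraries a layer, the test found 26% of simulated features changed by a log2 fold change of 1 between OSVZ and ISVZ at E28. These features lay above a minimum mean count, and detection by level was not tested. Far fewer features were changed in the simulation than were called in the data, so this share does not carry over to the data. With the replicate block within each stage, 3819 features and 249 noncoding ones were called at E28, 649 at E42 and 2241 in the change. DESeq2's Wald test called 262 noncoding features at E28, of which 133 were among the 142, 540 features at E42 and 1917 changes. With all 36 libraries the counts were 84 noncoding, 116 at E42 and 539 changes, with only the libraries of the stage 1525, 63 noncoding and 980 at E42 (this model has no value for the change), and with only the groups compared 506 at E42. Without the filter 456 were called at E42. Leaving out single libraries gave 1102 to 1544 features and 48 to 77 noncoding features at E28, 58 to 154 at E42 and 511 to 1114 changes. The OSVZ share of all E28 calls was 42.3% (57.7% of noncoding ones) and 51.4% (67.6%) with library sizes computed without the 20 most abundant features. It was 49.8% (68.3%) with both identical VZ files left out. Of 49 named features called at E28, 16 kept the call without any 1 of the 4 libraries and 8 kept it in none of these fits. TSDBGID.27082 and TSDBGID.26616 reversed without ISVZ replicate 1, to 0.74 and 1.30, and were -10.48 and -6.10 without ISVZ replicate 2. No other named feature reversed when any of the 4 libraries was left out. Such fits leave a single library in a layer, so a lost call alone does not show that the left-out library carried the difference. The cause of these movements was not tested.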
